A study of Mus musculus with 27 samples.

Results

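A set of 10 integrin genes was followed across sorted immune cells of the inflamed mouse colon and the spleen. They were *Itgae*, which encodes CD103, and *Itgb7*, *Itga4*, *Itgb1*, *Itgal*, *Itgam*, *Itgax*, *Itgb2*, *Itgav* and *Itgb8*. A probe belonged to the set where the gene symbol in the deposited intensity table was one of these, which gave 26 of the 45281 probes and 10 of the 30869 symbols. The colon samples came from C57BL/6 mice given 2% dextran sulphate sodium (DSS), a compound that injures the colon epithelium and brings on colitis, and were either wild type (WT) or *Mbd2*-/- littermates that lacked the methyl-CpG-binding protein Mbd2 in every cell. Mice were adults matched for age and sex, no untreated mice were measured, and each sample could hold RNA of several pooled mice. Monocytes (CD11b+ Ly6C+) had 5 arrays per genotype, macrophages (CD11b+ F4/80+ MHC-II+ Ly6C-) had 5 arrays per genotype, and type 1 conventional dendritic cells (cDC1s, labelled CD11b-negative DC and sorted as CD11c+ CD11b- CD103+) had 2 WT and 3 *Mbd2*-/- arrays. Splenic CD4 T cells, taken 6 weeks after transfer in a T-cell model of colitis, had 1 array of each genotype, so that their values carry no replicate error.

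Integrins are paired receptors of an alpha and a beta chain that hold cells to other cells and to matrix. The chain αE, known as CD103, pairs with β7, and αEβ7 binds E-cadherin on epithelial cells and marks intestinal cDC1s and intraepithelial lymphocytes, while α4β7 binds MAdCAM-1 and brings lymphocytes into the gut, and α4β1 binds VCAM-1. The β2 chain pairs with αL to make LFA-1, with αM (CD11b) and with αX (CD11c), and αvβ8 releases active TGF-β from its latent form.

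Levels are given as log2 of the background-corrected, quantile-normalized intensity, on which undetected probes sat near 4.3, and levels of different probes are not comparable. Mean intensity per array before normalization was 203 to 353 in monocytes and macrophages, 265 to 292 for the WT and 172 to 228 for the *Mbd2*-/- cDC1 arrays, and 16024 to 18608 probes per array were above background (detection p under 0.05). The *Mbd2* probe was above background on 0 of 27 arrays, so it did not check the genotype labels. The sort labels were checked by the summed intensity of marker genes. The cDC1 markers summed to 7286 to 9539 on cDC1 arrays against at most 2882 on any other array, the macrophage markers to 46264 to 54403 on macrophage arrays against at most 23810 elsewhere, and the monocyte markers to 16112 to 26753 on monocyte arrays against at most 9849 elsewhere. *Ccr2* was not above background on any *Mbd2*-/- monocyte array.

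Of the 26 probes, 17 were bright enough to be tested in at least 1 comparison of genotypes or cell types. They covered 9 of the 10 genes, and 9 probes were above background on all 25 colon arrays. A probe was called where the limma adjusted p was under 0.05 and the log2 change was at least 1 in size. *Itgae* had 6 probes, all tested. *Itga4* had 6 probes and *Itgav* 4, with 2 tested for each, *Itgax* had 2 probes, both tested, *Itgb1* had 2 with 1 tested, and *Itgb7*, *Itgal*, *Itgam* and *Itgb2* had 1 tested probe each. *Itgb8* had 2 probes, and neither was above background on any colon array. Of all 26, 4 probes were above background on 0 of 27 arrays. Each gene is described by its brightest tested probe unless another is named.

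**Figure D1:**
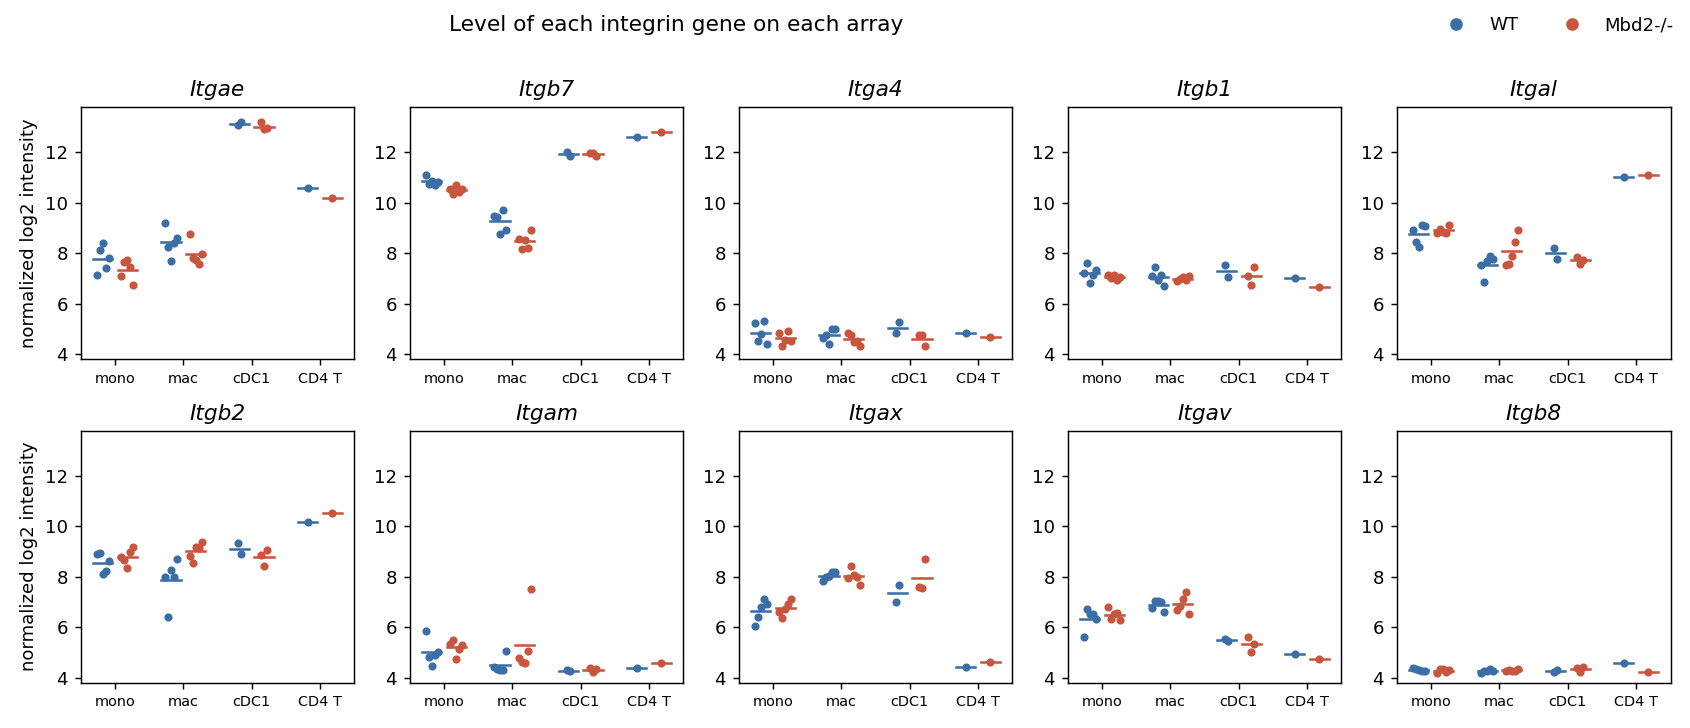
Normalized log2 intensity of the brightest probe of each of the 10 integrin genes, with 1 panel per gene, 1 point per array and a line at the mean of each group. The 27 arrays were normalized together, and the panels show WT and *Mbd2*-/- monocytes, macrophages, cDC1s and splenic CD4 T cells. *Itgae* was between 12.9 and 13.19 in cDC1s and at most 9.21 in monocytes and macrophages, and *Itgb8* was near background throughout.

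Between genotypes, few integrin probes changed. In monocytes 0 of 12 tested probes were called, against 0.426% of all probes tested, and 2 had an unadjusted limma p under 0.05. In macrophages 1 of 15 was called, *Itgb2*, which was higher in *Mbd2*-/- cells, against a background of 1.51%. In cDC1s 2 of 15 were called, both probes of *Itgae* that were lower in *Mbd2*-/- cells, against 1.93%. The median log2 difference over the tested integrin probes was -0.04 in monocytes, -0.01 in macrophages and -0.15 in cDC1s, beside -0.02, -0.066 and 0.026 over all tested probes.

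**Figure D2:**
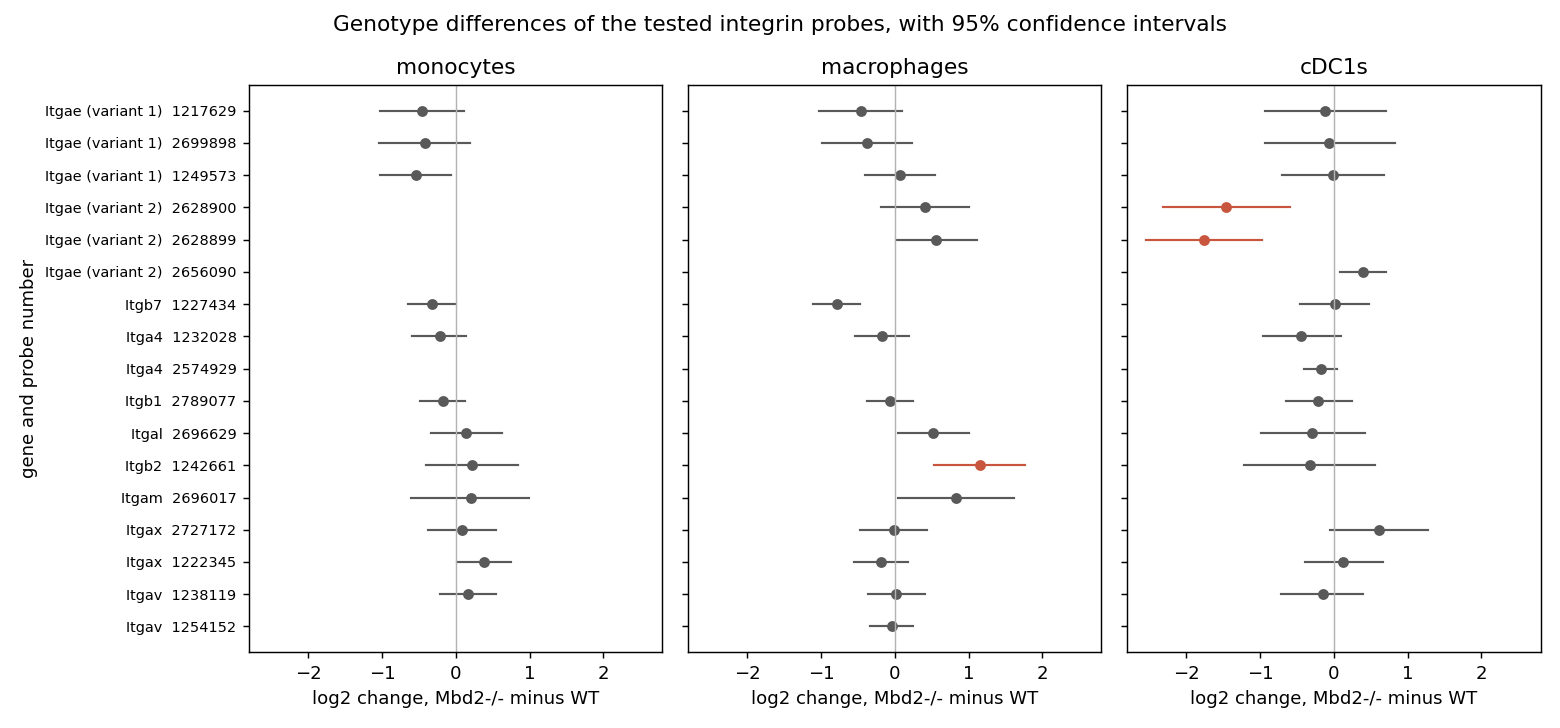
Difference between *Mbd2*-/- and WT on the log2 scale for the tested integrin probes in monocytes, macrophages and cDC1s, with 95% confidence intervals from limma. Red marks probes called at adjusted p under 0.05 and a log2 change of at least 1, which were *Itgb2* in macrophages (1.15) and a pair of *Itgae* probes in cDC1s (-1.76 and -1.46).

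The *Itgae* probes fell into 2 kinds according to the transcript named in the deposited table. Probes ILMN_1217629, ILMN_2699898 and ILMN_1249573 were listed for transcript variant 1, and the other 3 (ILMN_2628899, ILMN_2628900 and ILMN_2656090) for transcript variant 2. The variant 1 accession matched *Itgae* in the mouse RefSeq table of assembly GRCm38.p6, and the variant 2 accession matched no entry there, so what the variant 2 probes detect rests on the array's own annotation. Both kinds followed the same pattern across cell types. Over the 25 colon arrays, which share 3 sorted cell types, the other 5 probes correlated with ILMN_1217629 at r = 0.944 to 0.999.

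Variant 1 of *Itgae* was bright in cDC1s of both genotypes, with no difference that passed the test. ILMN_1217629 was 13.09 and 13.21 on the WT arrays and 13.2, 12.93 and 12.97 on the *Mbd2*-/- arrays. The groups overlapped, and the difference was -0.12 (SE 0.39, 95% interval -0.93 to 0.7, limma adjusted p = 0.89). The other variant 1 probes differed by -0.06 (interval -0.94 to 0.83, adjusted p = 0.955) and -0.01 (interval -0.7 to 0.68, adjusted p = 0.99). All 5 cDC1 arrays came from cells gated as CD103 positive.

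The variant 2 probes did not move together. On ILMN_2628899 the WT cDC1 arrays, numbers 23 and 26 in the labels, were at 11.73 and 10.34, and the *Mbd2*-/- arrays, numbers 27, 28 and 30, were at 10.12, 8.74 and 8.97. The 2 groups did not overlap, and the level fell by 1.76 in *Mbd2*-/- cells (SE 0.38, 3.38-fold, limma adjusted p = 0.01). ILMN_2628900 was 11.81 and 10.61 in WT cDC1s and 10.63, 9.24 and 9.39 in *Mbd2*-/- cDC1s, with array 27 at the level of array 26. It fell by 1.46 (SE 0.41, 95% interval -2.32 to -0.6, adjusted p = 0.0376). ILMN_2656090, the dimmest of the 3, was 7.01 and 6.76 in WT and 7.09, 7.24 and 7.5 in *Mbd2*-/- cDC1s, a difference of 0.39 that was not called and was -0.26 when arrays were median-scaled instead (SE 0.15, adjusted p = 0.119 as measured).

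The spread within genotype on the variant 2 pair was of the order of the difference between genotypes. The WT arrays lay 1.39 apart on ILMN_2628899 and the *Mbd2*-/- arrays 1.38 apart, whereas on ILMN_1217629 they lay 0.12 and 0.27 apart. Without WT array 23 the difference on ILMN_2628899 was -1.07 (adjusted p = 0.21) and that on ILMN_2628900 was -0.86 (adjusted p = 0.418), and neither was called. Fitted on the cDC1 arrays alone, ILMN_2628899 kept its size (-1.73) but not its call (adjusted p = 0.355). Without *Mbd2*-/- array 28 or 30, ILMN_2628899 was still called (-1.49 and -1.6) and ILMN_2628900 was not (-1.2 and -1.27, adjusted p = 0.124 and 0.122).

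The same contrast was visible in the deposited intensities before normalization. ILMN_2628899 read 3510 and 1284 in WT and 889, 249 and 310 in *Mbd2*-/- cDC1s, and ILMN_2628900 read 3704 and 1536 against 1248, 320 and 388. The standard error over the 26 to 47 beads of a probe was 2.24% to 6.33% of these intensities, which is the noise within an array and does not cover the variation between samples. Taken above background and relative to array 23, ILMN_2628899 stood at 34.9% on array 26, 23.5% on array 27, 4.94% on array 28 and 6.66% on array 30. ILMN_1217629 stood at 90.7%, 84.6%, 44.6% and 57.9% on the same arrays, and the median over all probes at 84.4%, 62.4%, 36.1% and 39.9%. ILMN_1217629 thus stood above the median of the array on each, and ILMN_2628899 far below it.

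**Figure D3:**
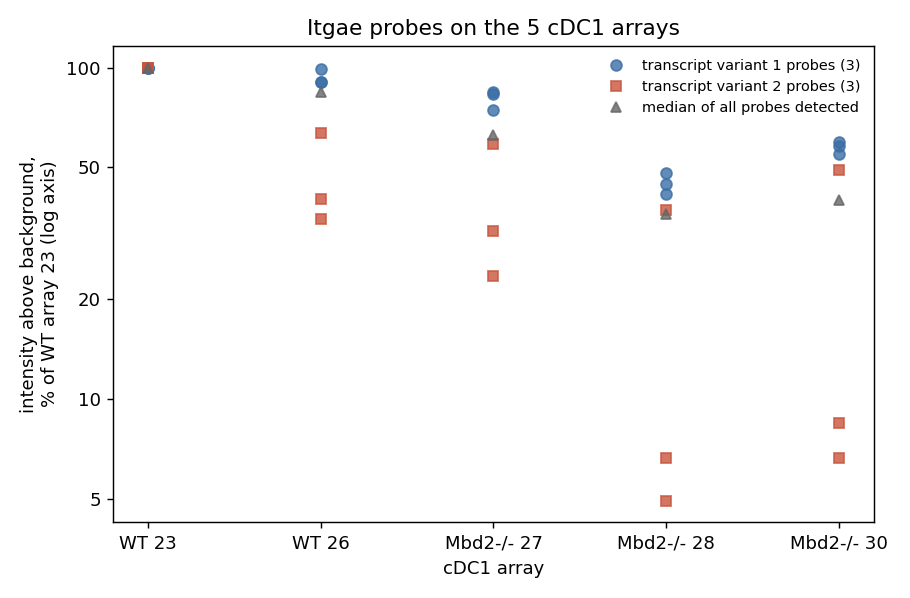
Intensity above background of the 6 *Itgae* probes on the 5 cDC1 arrays, each as a percentage of WT array 23 on a log axis, beside the median of all probes. The variant 1 probes stayed between 41.5% and 98.9%, while ILMN_2628899 was between 4.94% and 34.9% and ILMN_2628900 between 6.64% and 40%.

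Markers of other cells varied between these 5 arrays. The summed CD4 T-cell markers were 3111 on array 23, 716 on array 26, 1294 on array 27, 2705 on array 28 and 508 on array 30, against 36316 and 34462 on the T-cell arrays. Markers of intraepithelial and CD8 lymphocytes, which can also carry CD103, were 7163, 2772, 4367, 6664 and 3078 on the same arrays, with *Gzmb* not above background on any of them and *Cd8a* not on the *Mbd2*-/- arrays. The monocyte markers (6994 and 6767 on the WT arrays, 7798, 9849 and 9617 on the *Mbd2*-/- arrays), the neutrophil markers (504 and 569 against 2510, 1008 and 957) and the B- and plasma-cell markers (235 and 252 against 381, 514 and 304) were higher in *Mbd2*-/- cDC1s with no overlap. The macrophage (1816 and 2279 against 3081, 2248 and 5313) and eosinophil markers (1498 and 1757 against 2464, 1661 and 1828) overlapped. The stromal and endothelial markers (3835 and 1939 against 1105, 3560 and 742) did too, as did both lymphocyte lists and the epithelial list. The epithelial markers were 18591, 4345, 13367, 14375 and 6402 on arrays 23, 26, 27, 28 and 30. Array 23, the highest for the variant 2 pair, was highest for both lymphocyte lists and for the epithelial list, and array 28, the lowest for the pair, was second highest for these 3. The part of these cells in the *Itgae* values was not tested. In bulk RNA of sorted cells, fewer cells of a kind and less RNA per cell cannot be told apart. The WT cDC1 arrays stood among the first 12 arrays of the table and the *Mbd2*-/- arrays after them. With 6 arrays to a BeadChip, genotype and place in the table cannot be told apart for cDC1s.

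The difference between genotypes was itself compared between cell types. On ILMN_2628899 the change in cDC1s minus that in macrophages was -2.32 (SE 0.46, limma adjusted p = 0.0087), and on ILMN_2628900 it was -1.86 (SE 0.5, adjusted p = 0.0322). In macrophages these probes lay near background, with means of 4.57 and 4.8 in WT and 5.14 and 5.21 in *Mbd2*-/- cells, above background on 2 and 3 of 5 WT arrays. A fall like that in cDC1s could not have been seen there, so the difference mostly restates the cDC1 change. They were 2 of 19 integrin probes called in that comparison, against 3.76% of all probes. Against monocytes 0 of 18 were called (background 0.519%; 3 with unadjusted p under 0.05), and the pair was no more measurable, with ILMN_2628899 above background on 0 of 5 WT and 1 of 5 *Mbd2*-/- monocyte arrays and ILMN_2628900 on 2 of 5 in each. Between macrophages and monocytes 0 of 16 were called (background 0.0213%; 3 with unadjusted p under 0.05).

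*Itgae* signal was also above background on the colon monocyte and macrophage arrays, far below cDC1s. The intraepithelial and CD8 lymphocyte markers summed to between 1406 and 5253 on these arrays, with *Gzmb* not above background on any of them. The cDC1 markers summed to between 1485 and 2882 there. The part of such cells in this *Itgae* signal was not tested. ILMN_1217629 ranged from 7.14 to 8.43 in WT monocytes, from 6.74 to 7.75 in *Mbd2*-/- monocytes, from 7.69 to 9.24 in WT macrophages and from 7.57 to 8.8 in *Mbd2*-/- macrophages. The genotype difference was -0.46 in each (adjusted p = 0.49 in monocytes and 0.311 in macrophages). In WT cells ILMN_1217629 was 41-fold higher in cDC1s than in monocytes and 26.1-fold higher than in macrophages, values that follow from sorting cDC1s on CD103 and are given as a description. ILMN_2628899 was not above background on any WT monocyte array and was at least 85.1-fold higher in WT cDC1s, measured against the lowest signals above background.

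*Itgb7* encodes the chain that pairs with αE and with α4. No gate stained β7 itself, but cells gated on CD103 carry it as the partner of αE, so the cell type differences of *Itgb7* that involve cDC1s are not free of the sort. *Itgb7* was lower in *Mbd2*-/- macrophages by less than the called size. The WT macrophage arrays were at 9.51, 9.45, 8.79, 9.75 and 8.95, and the *Mbd2*-/- arrays at 8.59, 8.2, 8.54, 8.25 and 8.93. The ranges overlapped through 1 array of each genotype, and the difference was -0.79 (SE 0.16, 95% interval -1.11 to -0.47, limma adjusted p = 0.00702). It kept an adjusted p under 0.05 when each of the 10 arrays was left out (-0.91 to -0.67), and in 11 of 14 other settings. The settings that changed only a calling threshold reused the same fit, so they were bound to be among the 11. The *Itgb7* difference had an adjusted p of 0.0751 with median scaling, 0.108 with macrophage arrays alone and 0.128 with position in the table as a block.

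Other cell markers moved with genotype in the same macrophage arrays. The summed CD4 T-cell markers lay between 737 and 1219 on WT arrays and between 572 and 724 on *Mbd2*-/- arrays, and the B- and plasma-cell markers between 907 and 1654 and between 552 and 1359. The intraepithelial and CD8 lymphocyte markers went the other way, between 1818 and 3860 on WT arrays and between 3319 and 4757 on *Mbd2*-/- arrays. *Itgb7* was brighter on the T-cell arrays than on any colon array. The part of these cells in the *Itgb7* difference was not tested. In monocytes the *Itgb7* difference was -0.32 (adjusted p = 0.364), with WT levels from 10.73 to 11.14 and *Mbd2*-/- levels from 10.38 to 10.75, and in cDC1s it was 0.01 (95% interval -0.46 to 0.48, adjusted p = 0.986). The macrophage and monocyte differences were not distinguishable (-0.47, adjusted p = 0.709), nor were those of cDC1s and macrophages at the threshold (0.8, adjusted p = 0.0755).

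Between colon cell types *Itgb7* was ordered cDC1s, monocytes, macrophages in both genotypes. In WT cells it was 11.87 and 12.03 in cDC1s, 10.73 to 11.14 in monocytes and 8.79 to 9.75 in macrophages, with no overlap between neighbours. It was 6.3-fold higher in cDC1s than in macrophages (log2 2.65, adjusted p = 4.64e-10) and 3-fold lower in macrophages than in monocytes (log2 -1.58, adjusted p = 9.22e-08). The step from monocytes to cDC1s was 1.07 (adjusted p = 0.00024) and was no longer called with median scaling (0.5, adjusted p = 0.26), with loess normalization (0.98) or without array 23 (0.99). In *Mbd2*-/- cells the corresponding differences were 3.45, -2.05 and 1.4, and each was called. The monocyte arrays stood among the first 12 of the table and the macrophage arrays among the next 12. Cell type and position in the table therefore cannot be told apart between these cells, for any gene. The same holds for WT cDC1s against macrophages and for *Mbd2*-/- cDC1s against monocytes.

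*Itga4* and *Itgb1* gave little signal or little difference. The brightest *Itga4* probe had group means of 4.58 to 5.04, at or near background, and was above background on 14 of 25 colon arrays, so the α4 partner of β7 and β1 could not be compared at this signal. *Itgb1*, the partner of many alpha chains, was above background on every colon array with group means of 7 to 7.31. Its differences between genotypes were -0.17 in monocytes, -0.07 in macrophages and -0.21 in cDC1s, and between WT cell types the widest was 0.24 (95% interval -0.16 to 0.65, adjusted p = 0.354). It passed the limma test in 0 of the 9 comparisons, with 0 at an unadjusted p under 0.05.

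Among the β2 integrins, *Itgb2* was the 1 called in a genotype comparison. In macrophages the WT arrays 11 to 15 were at 8.03, 6.43, 8.31, 8 and 8.73 and the *Mbd2*-/- arrays 16 to 20 at 8.83, 8.58, 9.19, 9.19 and 9.43. The groups overlapped, and WT array 12 lay well under the others. *Itgb2* was 2.22-fold higher in *Mbd2*-/- macrophages (log2 1.15, SE 0.3, 95% interval 0.53 to 1.76, limma adjusted p = 0.0286). Without array 12 the difference was 0.78 (adjusted p = 0.0658), and without array 14, 18, 19 or 20 it was 1.17, 1.11, 1.11 and 1.05 (adjusted p = 0.0538 to 0.0894), so the call was lost in 5 of 10 such fits. It was also lost with median scaling (adjusted p = 0.101) and with macrophage arrays alone (adjusted p = 0.147). In monocytes the difference was 0.22 (adjusted p = 0.807) and in cDC1s -0.33 (adjusted p = 0.686).

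Markers of neutrophils and monocytes were also higher by median in *Mbd2*-/- macrophages. The eosinophil markers were not, between 2114 and 3876 (median 3428) on WT arrays and between 2031 and 3912 (median 3021) on *Mbd2*-/- arrays. The summed neutrophil markers lay between 468 and 1727 on WT arrays and between 1279 and 5197 on *Mbd2*-/- arrays, and the monocyte markers between 4074 and 6986 and between 5871 and 7954, with both pairs of ranges overlapping. *Ngp* and *Camp* were not above background on any WT macrophage array. *Elane*, which the array lists as Ela2, went the other way, above background among WT macrophage arrays and on no *Mbd2*-/- one. The part of these cells in the *Itgb2* difference was not tested. The macrophage difference minus the monocyte difference was 0.93 (adjusted p = 0.697).

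Of the alpha partners of β2, *Itgal* and *Itgax* each had a called difference between WT macrophages and monocytes. *Itgal*, the αL chain of LFA-1, was 8.27 to 9.13 in WT monocytes and 6.87 to 7.89 in WT macrophages. It was 2.34-fold lower in macrophages with no overlap (log2 -1.22, SE 0.24, adjusted p = 0.000486). In *Mbd2*-/- cells the difference was -0.84 (adjusted p = 0.0093), under the called size, and without *Mbd2*-/- macrophage array 20 it was -1.06. Between *Mbd2*-/- and WT macrophages *Itgal* differed by 0.52 (adjusted p = 0.179).

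*Itgax* encodes CD11c, on which cDC1s were gated, and macrophages and monocytes were not. In WT cells it was 6.07 to 7.13 in monocytes, 7.84 to 8.22 in macrophages and 7.02 and 7.7 in cDC1s. It was 2.63-fold higher in macrophages than in monocytes (log2 1.4, adjusted p = 5.54e-05), and its dimmer probe gave 1.34 (adjusted p = 5.03e-06). The *Mbd2*-/- cells gave 1.29 (adjusted p = 0.000113) on the brightest probe. The dimmer probe gave 0.77 there (adjusted p = 0.00195), under the called size. Without background correction the brightest probe was under the called size in both genotypes (0.95 in WT and 0.9 in *Mbd2*-/- cells). The mean was 8.06 in WT macrophages and 7.36 in the CD11c-gated WT cDC1s, a difference of -0.71 that did not pass the test (adjusted p = 0.0596). The genotype difference in cDC1s was 0.61 (adjusted p = 0.244).

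*Itgam* encodes CD11b, the protein that gated monocytes and macrophages in and cDC1s out. Its single probe was dim. It was above background on 4 of 5 WT and 5 of 5 *Mbd2*-/- monocyte arrays, on 1 of 5 WT and 4 of 5 *Mbd2*-/- macrophage arrays, and on 0 of 5 cDC1 arrays. The probe could therefore not be used to compare levels. A single array, *Mbd2*-/- macrophage 20, was at 7.54, while the other 4 were at 4.59 to 5.09.

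*Itgav*, the αv chain, was lower in cDC1s than in the other colon cells. Its brightest probe was 6.61 to 7.07 in WT macrophages, 5.6 to 6.72 in WT monocytes and 5.46 and 5.52 in WT cDC1s. It was 2.66-fold lower in cDC1s than in macrophages (log2 -1.41, adjusted p = 7.32e-05), and 3.01-fold lower in *Mbd2*-/- cells (log2 -1.59, adjusted p = 1.81e-06). The WT difference was -0.71 without background correction and -0.96 with an offset of 50, under the called size in both (adjusted p = 0.000197 and 0.000132). Against monocytes the WT cDC1 difference was -0.85 (adjusted p = 0.00807), under the called size, and the *Mbd2*-/- difference was -1.17 (adjusted p = 8.86e-05). The *Mbd2*-/- call was lost without background correction (-0.53), with an offset of 50 (-0.75) and with cyclic loess (-0.93). The genotype differences of *Itgav* were 0.16 in monocytes, 0.02 in macrophages and -0.15 in cDC1s. *Itgb8*, its partner in TGF-β activation, lay between 4.2 and 4.42 on colon arrays and could not be compared. On the WT T-cell array it was just above background, at 4.6.

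Counted over the set, cell type separated more integrin probes than genotype did. Between WT macrophages and monocytes 4 of 13 tested probes were called, against 4.74% of all probes. The 2 higher in macrophages (background 2.57%) were the *Itgax* probes and the 2 lower (background 2.17%) were *Itgb7* and *Itgal*. Between WT cDC1s and monocytes 8 of 16 were called (background 17.1%), all higher in cDC1s (background for higher 8.96% and for lower 8.15%), and 6 of the 8 were *Itgae* probes. Between WT cDC1s and macrophages 9 of 16 were called (background 18%), with *Itgae*, *Itgb7* and *Itgb2* higher (background 9.58%) and *Itgav* lower (background 8.44%). In *Mbd2*-/- cells 2 of 13, 10 of 15 and 8 of 16 were called in the same order, against 5.72%, 18.3% and 17.4%. Because several probes share 1 gene and the gates used 3 of the genes, these counts describe the set.

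*Itgb2* was called between WT cDC1s and macrophages (log2 1.24, adjusted p = 0.0148) but not between *Mbd2*-/- ones (-0.23, adjusted p = 0.614). The WT difference was 0.88 without WT macrophage array 12 and 1.02 (adjusted p = 0.182) without array 23, and neither was called. The test of the cDC1 genotype effect minus the macrophage one gave -1.48 (adjusted p = 0.0853).

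In splenic CD4 T cells *Itgb7*, *Itgal* and *Itgb2* were brighter than on any colon array, and *Itgae* lay between cDC1s and macrophages. With the 27 arrays normalized together, *Itgb7* was 12.59 on the WT and 12.81 on the *Mbd2*-/- T-cell array, and the highest colon array was at 11.99. *Itgal* was 11.03 and 11.09 against at most 9.12 in the colon, and *Itgb2* was 10.17 and 10.55 against at most 9.4. *Itgae* was 10.58 and 10.17.

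*Itgax*, *Itgam* and *Itgav* were dim in T cells. *Itgax* was 4.41 and 4.63, *Itgam* 4.39 and 4.58, and *Itgav* 4.93 and 4.76. *Itgav* was above background on both T-cell arrays, and *Itgax* and *Itgam* only on the *Mbd2*-/- one. *Itgb1*, at 7.02 and 6.64, was within or just under the range of the colon cells (6.7 to 7.61). The *Mbd2*-/- minus WT difference between the 2 arrays was -0.41 for *Itgae*, 0.22 for *Itgb7*, 0.06 for *Itgal* and 0.38 for *Itgb2*. With median scaling it was -1.13, -0.43, -0.71 and -0.42, so that only *Itgae* kept its sign among these 4. The neutrophil markers summed to 24691 on the WT T-cell array and 5554 on the *Mbd2*-/- one. These 2 arrays allow no test of genotype.

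The genes most like each integrin over the 25 colon arrays were found by Pearson correlation among 18346 genes. The points share 3 cell types and their libraries, so the values are descriptions. Those most like *Itgae* were listed as scl0002540.1_6 (r = 0.996), 3110018K01Rik, now *Septin3* (0.993), *Nup210* (0.986), 2810046M22Rik, now *Wdr86* (0.986), and *Btla* (0.985). *Itgb7* was most like *Ccnd3* (0.969) and *Itpr1* (0.96), and *Itgax* most like *Dnase1l3* (0.902) and *Plxnc1* (0.896). *Itgb2* was most like *Rexo2* (0.942), *Itgav* most like *Lrrc8d* (0.925) and *Map4k3* (0.922), and *Itgam* most like *Thbs1* (0.912) and LOC674114 (0.881). *Itgal* was most like LOC100045567 (0.908) and A030007L17Rik, now *Ggct* (0.904). For the dim *Itga4* the highest values were 0.711 (A830092P18Rik) and 0.705 (8030474H12Rik), and for the flat *Itgb1* 0.684 (LOC382588) and 0.643 (*Spatc1*).

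Among 17 other integrin chains, all with probes on the array, limma called 0 of 9 tested between genotypes in monocytes and 0 of 9 in macrophages. Of all probes 0.426% and 1.51% were called. There were 2 and 1 of these chains at an unadjusted p under 0.05. In cDC1s 1 of 11 was called, against 1.93% of all probes. *Itga2b*, the αIIb chain of the platelet fibrinogen receptor, was 4.62 and 5.23 in WT and 6.03 to 6.56 in *Mbd2*-/- cDC1s, with no overlap (log2 1.35, SE 0.21, adjusted p = 0.000775), and was not called with median scaling (0.77, adjusted p = 0.0515) or cyclic loess (0.86), without background correction (0.54), with an offset of 50 (0.78) or with cDC1 arrays alone (adjusted p = 0.355). It stayed near background in monocytes and macrophages, at 4.3 to 5.15. The median difference over the 11 was 0.24, beside 0.026 over all tested probes.

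The other chains separated cell types more. In WT cells *Itgb5*, a partner of αv, was lower in cDC1s than in macrophages by 4.69 on the log2 scale (difference -4.69, adjusted p = 3.16e-13) and than in monocytes (difference -3.75). *Itga5*, the fibronectin receptor chain, was also lower (-2.65 and -3.59), and *Itga3*, a laminin receptor chain, was higher (2.33 and 2.22). Between WT macrophages and monocytes 1 of 11 was called, *Itga9*, higher in macrophages (1.13), against 2.57% of all probes called higher. This call was lost without background correction (0.39) and with an offset of 50 (0.58). In all, 2 were higher and 4 lower of 14 in cDC1s against macrophages (9.58% and 8.44% of all probes), and 1 higher and 2 lower of 14 against monocytes (8.96% and 8.15%). The list medians were -0.21, -0.22 and 0.0024 in these 3 comparisons (cDC1s against macrophages, cDC1s against monocytes, macrophages against monocytes), beside -0.045, -0.026 and 0.0047 over all probes.

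Of 20 integrin ligands and their carriers, 19 had probes, and 11 were tested between genotypes in each cell type. *Spp1*, which encodes osteopontin, a ligand of αv and α4 integrins, was called lower in *Mbd2*-/- cells of each type. In monocytes the WT arrays lay between 9.05 and 9.64 and the *Mbd2*-/- arrays between 7.98 and 8.44. In macrophages they lay between 8.18 and 9.13 and between 6.96 and 7.87, and in cDC1s at 8.93 and 9.27 against 7.71 to 8.29. The genotypes did not overlap in any of the 3 cell types. The differences were -1.18 in monocytes (SE 0.19, limma adjusted p = 0.00124), -1.23 in macrophages (SE 0.19, adjusted p = 7e-04) and -1.01 in cDC1s (SE 0.27, adjusted p = 0.0258). The cDC1 call was lost without WT array 23 (-0.85, adjusted p = 0.209) and without *Mbd2*-/- array 27 (-0.83, adjusted p = 0.0635), and in 8 of 18 settings in all, among them no background correction (-0.85), an offset of 50 (-0.93), array weights (adjusted p = 0.107) and cDC1 arrays alone (adjusted p = 0.355).

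*Vcam1*, the counter-receptor of α4β1, was called higher in *Mbd2*-/- monocytes (9.11 to 10.33 in WT, 11.05 to 11.48 in *Mbd2*-/-, log2 1.52, adjusted p = 0.000447). In macrophages it was 0.94 higher, under the called size (adjusted p = 0.0157), and in cDC1s 0.85 (adjusted p = 0.0955). The other 9 tested ligands were not called in any of the 3 genotype comparisons. Of all probes, 0.426%, 1.51% and 1.93% were called in monocytes, macrophages and cDC1s. The median differences of the list were 0.26, -2.8e-05 and 0.49 in monocytes, macrophages and cDC1s, beside -0.02, -0.066 and 0.026 over all probes.

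**Figure D4:**
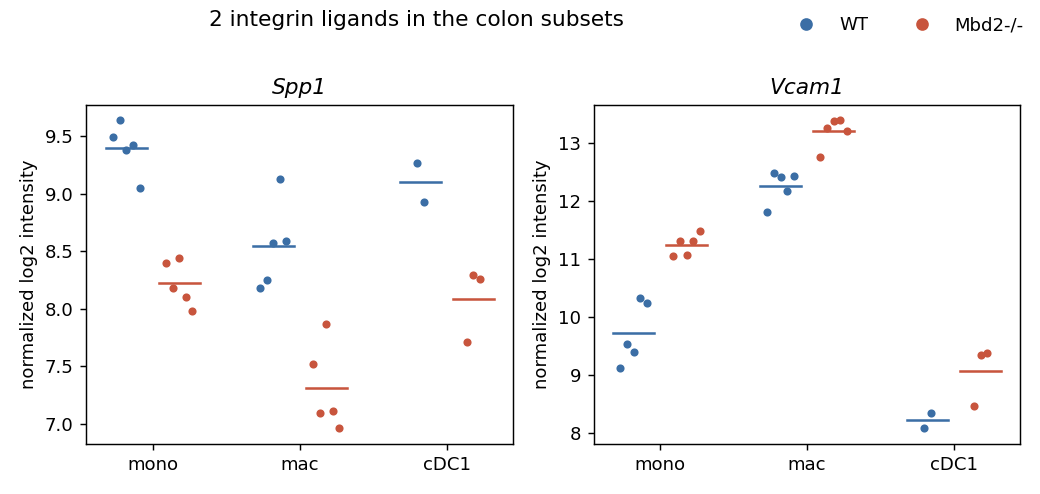
Normalized log2 intensity of *Spp1* and *Vcam1* on each of the 25 colon arrays, by cell type and genotype. *Spp1* was lower in every *Mbd2*-/- array than in every WT array of the same cell type, and *Vcam1* ranged from 8.08 in WT cDC1s to 13.39 in *Mbd2*-/- macrophages.

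The called ligands were lower in cDC1s than in the other WT colon cells. Against macrophages 7 of 14 tested were lower and 0 higher (8.44% and 9.58% of all probes), with *Vcam1* at -4.04, the junctional molecule gene *F11r* at -2.51 and *Nrros*, whose product anchors latent TGF-β and which the array lists as Lrrc33, at -1.43. Against monocytes 6 of 11 were lower and 0 higher (8.15% and 8.96% of all probes), among them *C3* (-2.02), *Tgfb1* (-1.96) and *Icam2* (-1.75). In macrophages against monocytes 2 of 11 were higher (2.57% of all probes), *Vcam1* (2.54) and *Tgfb3* (1.14). The *Tgfb3* call was lost without background correction (0.49) and with an offset of 50 (0.69). The list medians were -0.76, -1.2 and -0.15.

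Of 28 genes of integrin activation and adhesion adaptors, 22 were tested between genotypes. In monocytes 0 and in macrophages 0 were called, against 0.426% and 1.51% of all probes. Whatever their size, 0 and 2 had a limma adjusted p under 0.05, and 3 and 5 an unadjusted p under 0.05. In cDC1s 1 was called, against 1.93% of all probes. It was the kinase gene *Src*, at 4.95 and 5.53 in WT and 6.12 to 6.5 in *Mbd2*-/- cells (log2 1.05, limma adjusted p = 0.0294). This call was lost in 10 of 18 settings. Among them were no background correction (0.45), an offset of 50 (0.64) and median scaling (0.47, adjusted p = 0.509). It was also lost with array weights (adjusted p = 0.127), with cDC1 arrays alone (adjusted p = 0.355) and without array 28 or 30. Without array 23 the difference was 0.76, under the called size. The list medians were -0.038, -0.0051 and 0.025.

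Across WT cell types, *Fyb*, an adaptor of T-cell and myeloid adhesion, was lower in cDC1s than in macrophages (-2.9, adjusted p = 6.07e-13) and monocytes (-2.64, adjusted p = 2.9e-12). *Apbb1ip*, which encodes the talin recruiter RIAM, was lower too (-1.31 and -1.16). Against monocytes *Apbb1ip* was under the called size without background correction (-0.82) and with an offset of 50 (-0.97). *Ptk2*, encoding focal adhesion kinase, was higher (1.07 and 1.53) while its relative *Ptk2b* was lower (-1.24 and -1.62). *Src* was higher in macrophages than in monocytes (1.63, adjusted p = 1.54e-06). Of 23 genes tested, 3 were higher and 4 lower in cDC1s against macrophages (9.58% and 8.44% of all probes). Against monocytes 2 were higher and 5 lower (8.96% and 8.15%). In macrophages 1 of 22 was higher than in monocytes (2.57%). The list medians were 0.059, -0.17 and -0.064.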

How the data were processed

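The authors hybridised RNA of sorted cells to Illumina MouseWG-6 BeadChips and deposited bead-mean intensity per probe, neither normalized nor background-subtracted, with detection p-values, bead standard errors and bead numbers per the file headers. The submitters' notes name lumi and limma without versions. A further 3 signal columns of no sample were not used. Here, intensities were corrected by normexp against 936 negative control probes, given an offset of 16, quantile-normalized over the 25 colon arrays and taken to log2, with the 27 arrays together where T cells are shown. A single limma model (version 3.58.1, R 4.3.3) was fitted to the 6 colon groups. To be tested, a probe needed a detection p below 0.05 on a number of the compared arrays no smaller than the size of the smaller group, and p-values were adjusted by Benjamini-Hochberg over all probes tested in a comparison. Correcting with an offset shrinks changes of dim probes. The number of arrays limits the precision, above all in cDC1s.

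All 10 integrins were named, each by its tested probe of highest mean, and probes were never averaged. The integrins and gene lists were chosen with earlier results of these data known. Genes most like *Itgae* were the 5 of highest correlation, and up to 2 for each other gene, of which 1 is not reported here. The paper describes the samples as biological replicates from separate experiments. The labels do not tie samples to mice or experiments, so p-values measure the spread between these samples, which may include that between experiments. The fit was tested on simulated data. Alternatives were background correction, offset, scaling, filters, thresholds, arrays fitted, array weights, blocks and each array left out. Probe sequences were not analysed here.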

Additional observations from a re-analysis of the deposited data

Results flagged for a closer look

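Of 36 groups of 5 arrays examined for a single array far from the rest (Dixon's ratio above 0.71), 2 exceeded the critical value, and chance alone exceeds it in about 5% of groups. Both concerned *Itgam*. WT macrophage array 15 was at 5.07, the only WT macrophage array with the probe above background, and *Mbd2*-/- macrophage array 20 was at 7.54, with the other 4 at 4.59 to 5.09. Array 20 was also the highest *Mbd2*-/- macrophage array for *Itgal* (8.92), *Itgb2* (9.43), *Itgb7* (8.93) and the *Itgae* probe ILMN_2628900 (6.26). It was the lowest for the dim *Itga4* (4.3). Without array 20 the *Itgb2* difference in macrophages was 1.05 (limma adjusted p = 0.0894) and was not called.

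The genotype effect differed between cDC1s and macrophages for the *Itgae* probes ILMN_2628899 (-2.32) and ILMN_2628900 (-1.86) by a limma interaction test. Both probes lay near background in macrophages, where a fall could not have been seen, so these values mostly restate the change in cDC1s. Neither was called without WT cDC1 array 23.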

How the results depend on the processing

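No paired analysis was possible because the array numbers in the labels are unique to each sample and groups share none. Monocyte and macrophage arrays whose numbers lie 10 apart, taken as a random block (consensus correlation 0.194), changed no call. No called value changed sign in any setting. The 1 macrophage genotype call became 0 without background correction, with median scaling, without the filter, at adjusted p under 0.01, with only the cell types compared, with array weights and with position in sixes as a fixed block, and 2 without a minimum fold. The 2 cDC1 genotype calls became 1 with cyclic loess, without the filter and with array weights, and 0 at adjusted p under 0.01 and with only the cell types compared. The 2 calls of effects that differ between cell types became 4 without background correction, 1 with cyclic loess, without the filter, at adjusted p under 0.01 and with array weights, and 0 with only the cell types compared. Macrophages against monocytes went from 4 to 1 (WT) and from 2 to 1 (*Mbd2*-/-) without background correction, and the latter to 6 without a minimum fold. The top *Itgae* probe kept -1.76 (adjusted p = 0.01) at the stricter threshold and had -1.73 (adjusted p = 0.355) with cDC1 arrays alone. The T-cell *Itgae* difference was -1.13 with median scaling. The causes were not tested.

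Leaving out 1 array at a time gave 0 to 0 calls for the monocyte genotype, 0 to 1 for macrophages (0 without array 12, 14, 18, 19 or 20) and 0 to 2 for cDC1s (0 without array 23, 1 without 28 or 30). It gave 4 to 4, 7 to 8 and 8 to 10 for macrophages against monocytes, cDC1s against monocytes and cDC1s against macrophages in WT cells, 2 to 3, 9 to 11 and 8 to 9 in *Mbd2*-/- cells, and 0 to 4 for the differing effects (0 without 23, 4 without 26 or 27, 1 without 28 or 30). The top *Itgae* probe ranged from -2.45 to -1.07. A group left with 1 array was assumed to vary like the others. Of 661 other values for single genes between genotypes, 640 kept their side of the threshold, 20 lost the call and 1 gained it. All 20 losses were of *Itgb2* in macrophages or ILMN_2628900 in cDC1s, the only called results among them. The rest had no call to lose, so the 640 do not measure how stable the calls were. Between cell types 1065 of 1099 kept their side, with 22 lost and 12 gained. Median scaling moved the median of all probes to -0.37 for the cDC1 genotype, -0.26 for the monocyte one, -0.2 for WT cDC1s against monocytes, and -0.45 and -0.34 for *Mbd2*-/- cDC1s against macrophages and monocytes. Dim probes (*Itga4*, *Itgam*, *Itgb8*) are limited by background.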
